A study of Mus musculus with 9 samples.

Results

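The 10 genes described here are *Fos*, *Fosb*, *Fosl1* and *Fosl2* of the FOS family, *Jun*, *Junb* and *Jund* of the JUN family, and the immediate early genes *Egr1*, *Ier2* and *Dusp1*. They were chosen by gene symbol from the deposited transcript tables and make up 10 of 52459 symbols and 25 of 131100 transcripts. All 10 passed the filter on low values, as did 15370 genes in all. RNA was sequenced from NMuMG cells, an established line from normal mouse mammary gland, in 3 groups of 3 libraries. Mock cells carried the empty pBICEP vector, EPR cells overexpressed the full lncRNA BC030870 (EPR) from the same vector, and EPRSTOPE cells overexpressed its point mutant, in which the second codon of the small open reading frame is a stop codon so that the peptide is not made. All cells, mock cells included, were kept under G418 and grown in serum, and the labels name no acute stimulus for any library. The cells were transfectant pools rather than clones, and the labels do not say whether the 3 libraries of a group came from separate pools, so the p-values measure the spread between these libraries.

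AP-1 is a dimeric transcription factor that pairs a JUN protein with another JUN protein or with a FOS protein. Most of its genes, like *Egr1*, *Ier2* and *Dusp1*, are immediate early genes, which growth factors and stress switch on within minutes through MAP kinase cascades and without new protein synthesis. Their mRNAs are short-lived, and some of the proteins, DUSP1 among them, act back on the same kinases. In mammary epithelium AP-1 and EGR1 are known for their part in proliferation and in the program of migration and matrix breakdown.

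The libraries held 5972457 to 11876435 estimated counts. Levels are given as counts per 1000000 counts of the library after TMM scaling (CPM). Before that scaling 3 counts correspond to 0.253 to 0.502 CPM, so that values of *Fos*, *Fosb* and *Egr1* rest on few counts. The transgene RNA, BC030870, stood at 0, 0 and 0.163 CPM in mock cells, at 23.7, 27.0 and 23.9 CPM in EPR cells and at 4.74, 4.16 and 3.80 CPM in EPRSTOPE cells. The mutant RNA was therefore less abundant than EPR, and in the comparison of EPR with EPRSTOPE the mutation and the level of the RNA cannot be told apart. The 14 epithelial marker genes summed to 3695 to 4160 CPM in mock, 9503 to 10611 CPM in EPR and 10689 to 11028 CPM in EPRSTOPE libraries. Most of this sum came from *Krt8* and *Krt18*. The same 6 markers (*Epcam*, *Krt5*, *Cldn3*, *Cldn4*, *Cldn7* and *Esrp1*) stayed under 3 counts in every mock and every EPRSTOPE library. In every EPR library 4 did (*Krt14*, *Cldn3*, *Cldn4* and *Esrp1*). Of the 8 epithelial markers above the filter, 7 rose and 1 (*Krt14*) fell in EPR cells. In EPRSTOPE cells 4 rose (*Cdh1*, *Krt8*, *Krt18* and *Ocln*) and none fell. By the same thresholds, given below, 28.1% and 28.0% of all tested genes were called. *Epcam* and *Ocln* averaged 0 and 0.315 CPM in mock cells, and *Krt14* averaged 0 CPM in EPR cells. These genes and *Cdh1* passed the filter through the groups where they were high, so their direction is partly set by the filter. *Cdh1* averaged 0.843 CPM in mock, 556 CPM in EPR and 403 CPM in EPRSTOPE cells. The 14 mesenchymal markers summed to 4074 to 4236 CPM in mock, 2231 to 2460 CPM in EPR and 3984 to 4323 CPM in EPRSTOPE libraries. Most of that sum came from *Vim* and *Fn1*, and of the 9 mesenchymal markers above the filter 6 fell and 1 rose in EPR cells, whereas 3 fell (*Cdh2*, *Twist2* and *Snai2*) and 2 rose (*Snai1* and *Pdgfra*) in EPRSTOPE cells. *Pdgfra* averaged 0 CPM in mock cells and likewise passed the filter through the other groups. Leukocyte markers reached at most 3.83 CPM and endothelial markers at most 16.4 CPM in sum. The mitochondrial share of the counts was 1.18 to 1.39% in mock, 1.90 to 2.58% in EPR and 1.62 to 1.68% in EPRSTOPE libraries. The part of these differences in the results below was not tested, and fewer cells of a type and less RNA per cell cannot be told apart in such bulk samples.

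Against mock cells, *Fos*, *Jund* and *Dusp1* rose and *Jun* fell in EPR cells, which makes 4 of 10 genes called. A call needed a log2 fold change beyond 0.5 and an adjusted p (edgeR's quasi-likelihood test, Benjamini-Hochberg) under 0.01, and it was met by 28.1% of all tested genes, 15.2% upwards and 12.9% downwards. In EPRSTOPE cells 5 of 10 genes were called, *Fos*, *Jund*, *Dusp1* and *Egr1* upwards and *Jun* downwards, where the share of all genes was 28.0%, with 15.6% upwards and 12.4% downwards. In the direct comparison 1 gene, *Egr1*, was called, and it was lower in EPR than in EPRSTOPE cells, where 13.2% of all genes were called, 6.86% higher in EPR and 6.35% lower. The 3 EPR libraries did not overlap the 3 mock libraries for 4 of the 10 genes, against 57.8% of all tested genes, and EPRSTOPE libraries did not overlap mock libraries for 9 of 10, against 56.4%. EPR and EPRSTOPE libraries did not overlap for 5 of 10, against 43.0% of all genes. The median log2 fold change of the 10 genes was -0.01 in EPR and 0.53 in EPRSTOPE cells against mock, and -0.21 between EPR and EPRSTOPE, while the medians over all tested genes were -0.01, -0.04 and 0.01. Both comparisons with mock use the same 3 mock libraries, so their values stand side by side and are not independent of each other. An exact permutation test on a single gene cannot go below p = 0.1 with 3 libraries against 3.

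**Figure D1:**
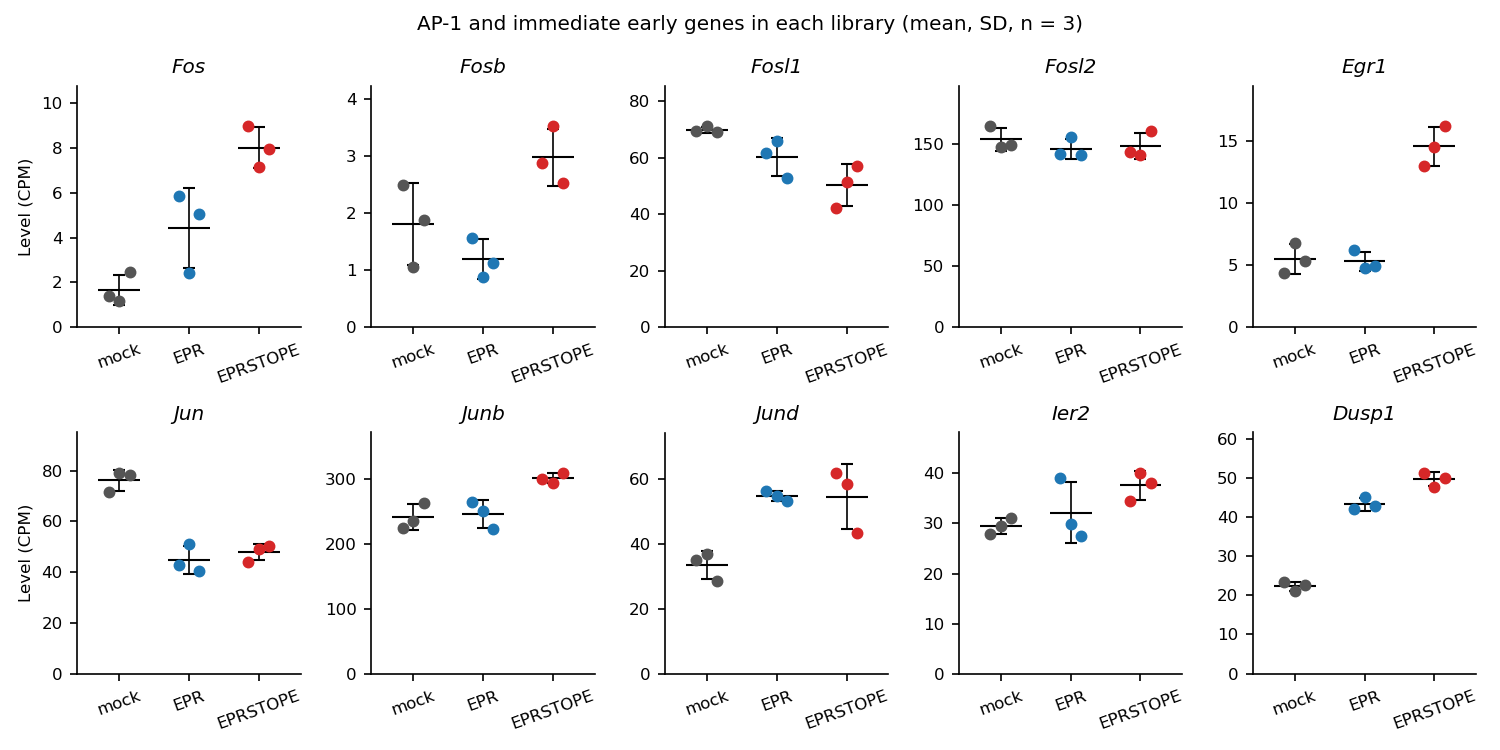
Level of each of the 10 genes in CPM in the 3 mock, 3 EPR and 3 EPRSTOPE libraries, with 1 point per library, a horizontal bar at the group mean and error bars of 1 SD; every axis starts at 0. *Egr1* is between 4.35 and 6.75 CPM in mock and EPR libraries and between 13.0 and 16.2 CPM in EPRSTOPE libraries, and *Dusp1* is between 21.1 and 23.3 CPM in mock libraries and between 42.1 and 51.3 CPM in all others.

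*Dusp1* encodes a nuclear phosphatase that inactivates MAP kinases, and its gene is a classic target of CREB family factors. The gene lies on chromosome 17 of GRCm38 (26505590 to 26562128, minus strand, Gencode M21). It stood at 23.3, 21.1 and 22.6 CPM in mock, at 42.1, 45.2 and 42.7 CPM in EPR and at 51.3, 47.7 and 49.9 CPM in EPRSTOPE libraries. The libraries of each group kept apart from those of both others. The log2 fold change was 0.96 (SE 0.08, adjusted p = 8.1e-07) in EPR and 1.15 (SE 0.08, adjusted p = 1.5e-07) in EPRSTOPE cells, whereas the difference between them, -0.20 (SE 0.07), did not pass the test (adjusted p = 0.066). In both comparisons with mock the call held under every alternative run, and leaving out single libraries moved the log2 fold changes only between 0.91 and 0.98 and between 1.10 and 1.18. The deposited tables split *Dusp1* over 3 transcripts. The coding transcript held 51.9% of the gene's counts in mock, 57.5% in EPR and 64.8% in EPRSTOPE libraries, and the rest was assigned to a pair of transcripts annotated with retained introns. At the transcript level the coding transcript was called in EPRSTOPE cells (log2 fold change 1.53, adjusted p = 0.0062 in edgeR's test over 45412 transcripts) and missed the threshold in EPR cells (1.22, adjusted p = 0.019).

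*Jun*, the founding JUN subunit and a substrate of JNK, went the opposite way. The gene lies on chromosome 4 (95049034 to 95052222, minus strand), and the files hold a single transcript of it. Its levels were 71.6, 79.2 and 78.2 CPM in mock, 42.9, 51.0 and 40.6 CPM in EPR and 44.2, 49.1 and 50.4 CPM in EPRSTOPE libraries. All 6 libraries with a transgene RNA lay below all 3 mock libraries, and the EPR and EPRSTOPE libraries overlapped. *Jun* fell by 0.77 on the log2 scale in EPR cells (SE 0.09, adjusted p = 2e-05) and by 0.67 in EPRSTOPE cells (SE 0.09, adjusted p = 6.6e-05), and the difference between them was -0.10 (SE 0.09, adjusted p = 0.45). With counts rebuilt from TPM the log2 fold changes were -0.48 (adjusted p = 0.065) and -0.41 (adjusted p = 0.11), and neither was then called. Under that setting the share of all genes called was smaller too, with 2258 and 2337 genes called in place of 4316 and 4302.

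*Jund*, which is known as the JUN gene kept on in resting cells and as a brake on proliferation in several cell types, lies on chromosome 8 (70698949 to 70700616, plus strand). It stood at 35.1, 36.7 and 28.4 CPM in mock, at 56.1, 54.8 and 53.0 CPM in EPR and at 61.8, 58.4 and 43.1 CPM in EPRSTOPE libraries. Neither transgene group overlapped the mock libraries, and the lowest EPRSTOPE library lay below all 3 EPR libraries. *Jund* rose by a log2 fold change of 0.72 (SE 0.13, adjusted p = 0.00068) in EPR and 0.71 (SE 0.13, adjusted p = 0.00083) in EPRSTOPE cells. The difference between EPR and EPRSTOPE was 0.01 with an SE of 0.13. With counts rebuilt from TPM neither call against mock held (adjusted p = 0.019 and 0.018), while the fold changes stayed at 0.88 and 0.90.

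*Junb*, often described as an antagonist of *Jun* that holds back the cell cycle, was the most abundant of the JUN genes. It lies on the same chromosome as *Jund* (84974484 to 84978718, minus strand). It stood at 224, 235 and 263 CPM in mock, at 264, 251 and 222 CPM in EPR and at 299.5, 294 and 309 CPM in EPRSTOPE libraries. The EPRSTOPE libraries lay above all 6 others, whereas mock and EPR libraries overlapped. The log2 fold change was 0.32 (SE 0.08, adjusted p = 0.0041) in EPRSTOPE against mock, which is under the fold threshold, and 0.03 (SE 0.08, adjusted p = 0.80) in EPR against mock. Between EPR and EPRSTOPE it was -0.29 (SE 0.08, adjusted p = 0.012).

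*Fos*, the subunit that growth factors switch on most strongly, was close to the limit of what these libraries show. It had 9, 11 and 30 estimated counts in mock, 67, 19 and 54 in EPR and 53, 67 and 69 in EPRSTOPE libraries. Scaled for depth these were 1.40, 1.16 and 2.44 CPM in mock, 5.85, 2.40 and 5.05 CPM in EPR and 8.98, 7.15 and 7.94 CPM in EPRSTOPE cells. The EPRSTOPE libraries lay above all others, while the lowest EPR library lay just under the highest mock library. *Fos* rose by a log2 fold change of 2.21 (SE 0.36, adjusted p = 0.00030) in EPRSTOPE and of 1.38 (SE 0.37, adjusted p = 0.0080) in EPR cells. The EPRSTOPE call held in every alternative in which *Fos* was tested. The EPR call was lost in limma-voom (adjusted p = 0.016), in a fit of only EPR and mock libraries (adjusted p = 0.013) and with protein-coding transcripts alone (adjusted p = 0.049). It was also lost when any library other than mock library 205 or EPR library 207 was left out, with adjusted p-values of 0.0015 to 0.040 and log2 fold changes of 1.14 to 1.81 over the 9 omissions. The difference between EPR and EPRSTOPE was -0.83 (SE 0.33, adjusted p = 0.078). The coding transcript of *Fos* held 80.0% of the gene's counts in mock, 77.3% in EPR and 73.7% in EPRSTOPE libraries.

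*Fosb*, the second early FOS gene, was lower still, with 7 to 33 estimated counts per library. It lies on chromosome 7 (19302696 to 19310051, minus strand). Its levels were 2.49, 1.06 and 1.87 CPM in mock, 1.57, 0.884 and 1.12 CPM in EPR and 2.88, 3.52 and 2.53 CPM in EPRSTOPE libraries. The EPRSTOPE libraries lay above all 6 others, by a narrow margin over the highest mock library. The log2 fold change was -0.55 (SE 0.40, adjusted p = 0.29) in EPR and 0.75 (SE 0.38, adjusted p = 0.13) in EPRSTOPE cells, and -1.29 (SE 0.39, adjusted p = 0.025) between EPR and EPRSTOPE. The counts were spread over 7 transcripts, of which 1, annotated with a retained intron, passed the filter. With protein-coding transcripts alone *Fosb* stood at -0.30 (adjusted p = 0.75) between EPR and EPRSTOPE and at 0.018 in EPRSTOPE against mock. The transcript with the retained intron took 30.3% of the gene's counts in mock, 12.9% in EPR and 53.7% in EPRSTOPE libraries.

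*Fosl1* (FRA-1) and *Fosl2* (FRA-2) encode the FOS proteins without a strong activation domain, and *Fosl1* is the member most often linked to the mesenchymal state. *Fosl1* stood at 69.4, 71.1 and 69.0 CPM in mock, at 61.7, 65.9 and 52.9 CPM in EPR and at 42.2, 51.5 and 57.1 CPM in EPRSTOPE libraries. All 6 libraries with a transgene RNA lay below the mock libraries, and EPR and EPRSTOPE libraries overlapped. The log2 fold change was -0.22 (SE 0.10, adjusted p = 0.11) in EPR and -0.47 (SE 0.11, adjusted p = 0.0030) in EPRSTOPE cells. The latter was under the fold threshold and passed it without EPRSTOPE library 211 (-0.57) and with protein-coding transcripts alone (-0.54). *Fosl2*, on chromosome 5 (32135801 to 32157842, plus strand), varied least. It stood at 164, 147 and 149 CPM in mock, at 141, 155 and 141 CPM in EPR and at 143, 141 and 160.3 CPM in EPRSTOPE libraries, and all 3 groups overlapped. Its log2 fold changes were -0.07, -0.05 and -0.02 in the 3 comparisons, each with an SE of 0.07.

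*Fosl1* lies on chromosome 19 of GRCm38 from 5447547 to 5455946, on the plus strand. In EPRSTOPE against mock the median of the other 476 tested genes on that chromosome was -0.56 on the log2 scale, with 80.7% of them below 0, and in EPR against mock it was -0.02. The 20 tested genes nearest to *Fosl1* in order had medians of -0.57 and -0.14. Relative to the chromosome's median, *Fosl1* stood at 0.09 in EPRSTOPE and at -0.20 in EPR cells, and the part of the chromosome's shift in the *Fosl1* value was not tested. *Fos* lies on chromosome 12 from 85473890 to 85477273, on the plus strand, among 585 other tested genes with a median log2 fold change against mock of -0.27 for EPR and -0.08 for EPRSTOPE. *Fos* moved against that shift and stood at 1.65 and 2.28 relative to its chromosome. For the other 8 genes the medians of the chromosome ran from -0.08 to 0.02 in all 3 comparisons.

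**Figure D2:**
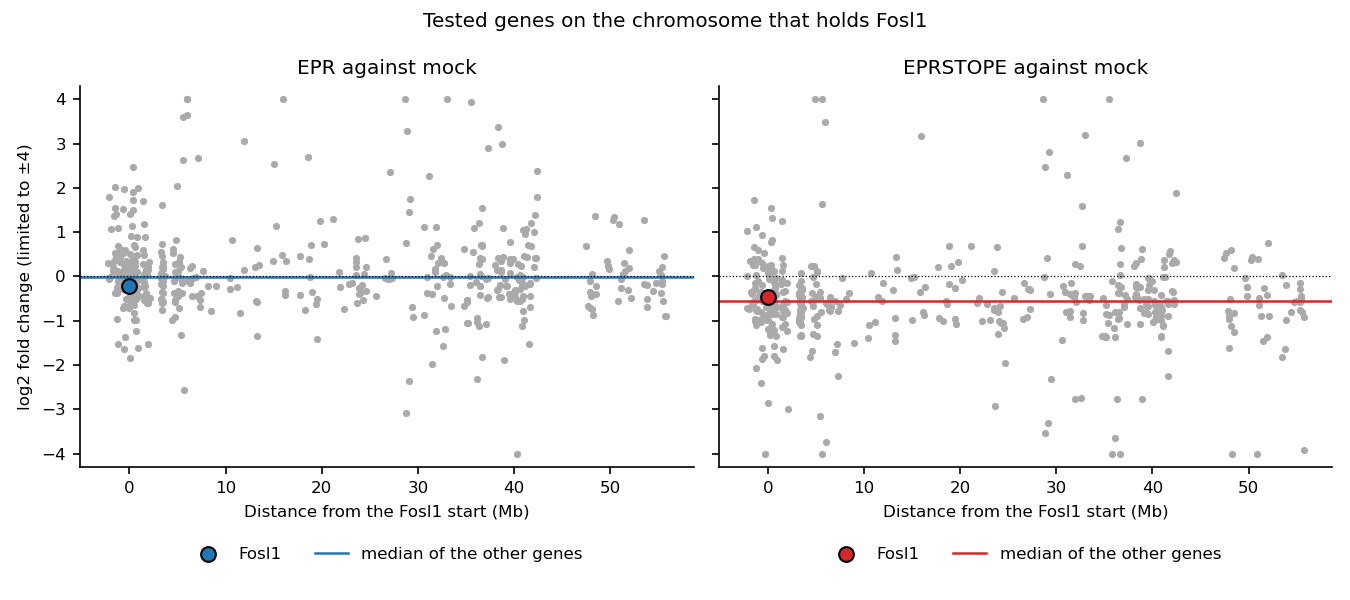
Log2 fold change of *Fosl1* and of the 476 other tested genes on its chromosome against the distance of their start from that of *Fosl1* in Mb, for EPR against mock (left) and EPRSTOPE against mock (right); the coloured line is the median of the other 476 genes the dotted line is 0, and values beyond 4 or -4 are drawn at that limit. In EPRSTOPE cells *Fosl1* sits close to the chromosome's median of -0.56, and in EPR cells the median is -0.02.

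*Egr1*, a zinc finger factor that serum response factor and ELK proteins switch on, separated the EPRSTOPE cells from both other groups. It had 28, 64 and 66 estimated counts in mock, 71, 38 and 53 in EPR and 77, 136 and 141 in EPRSTOPE libraries. These were 4.35, 6.75 and 5.37 CPM in mock, 6.20, 4.80 and 4.95 CPM in EPR and 13.0, 14.5 and 16.2 CPM in EPRSTOPE cells. Mock and EPR libraries overlapped, and all EPRSTOPE libraries lay above both. *Egr1* rose by a log2 fold change of 1.40 (SE 0.19, adjusted p = 7.3e-05) in EPRSTOPE against mock. In EPR against mock it was -0.05 (SE 0.20, adjusted p = 0.86). The direct difference between EPR and EPRSTOPE was -1.45 (SE 0.19, adjusted p = 0.00013), and it lay between -1.58 and -1.37 when single libraries were left out. That call was lost only with counts rebuilt from TPM (-1.47, adjusted p = 0.014), where 482 of all genes were called between EPR and EPRSTOPE in place of 2031. The gene lies on chromosome 18 from 34859823 to 34864984, on the plus strand. Of its 2 coding transcripts, 1 held 82.2% of its counts in mock, 89.1% in EPR and 91.0% in EPRSTOPE libraries.

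*Ier2*, an immediate early gene of unsettled molecular role that is induced together with *Fos* and *Egr1*, stood at 27.8, 29.4 and 31.0 CPM in mock, at 39.0, 29.9 and 27.5 CPM in EPR and at 34.6, 40.2 and 38.1 CPM in EPRSTOPE libraries. The EPRSTOPE libraries lay above all mock libraries, and the highest EPR library lay within the EPRSTOPE range. None of its 3 comparisons was called, with a log2 fold change of 0.35 (SE 0.13, adjusted p = 0.035) in EPRSTOPE and 0.13 (SE 0.12, adjusted p = 0.44) in EPR cells against mock. Between EPR and EPRSTOPE it was -0.23 (SE 0.12, adjusted p = 0.20).

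**Figure D3:**
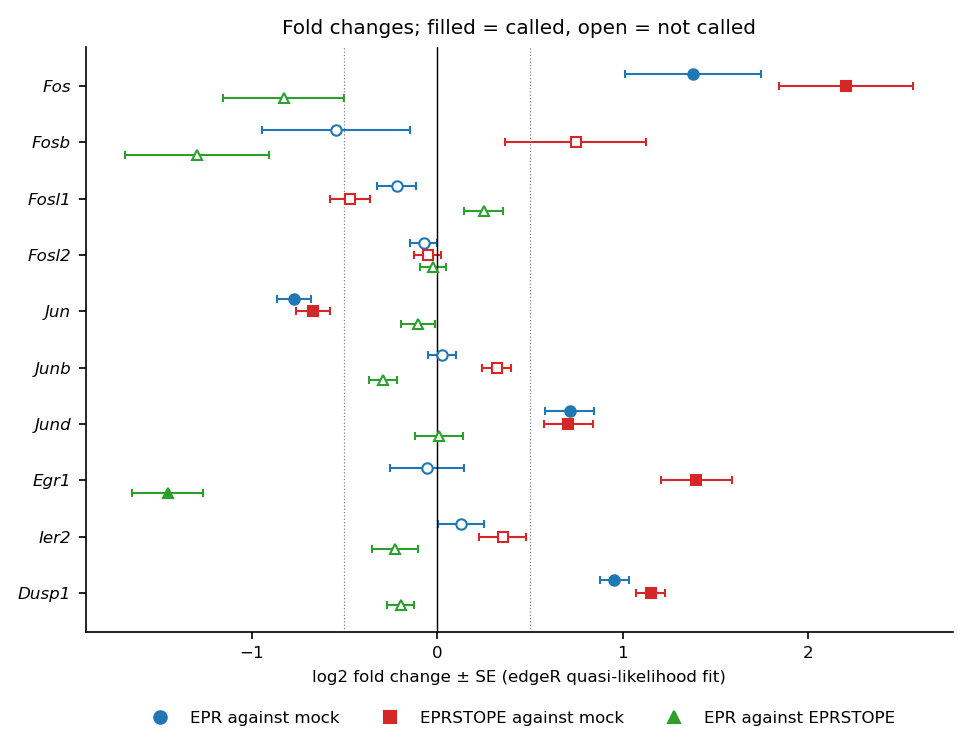
Log2 fold change of the 10 genes in EPR against mock (circles), EPRSTOPE against mock (squares) and EPR against EPRSTOPE (triangles), with bars of 1 SE from the edgeR fit; filled symbols are called, open symbols are not, and dotted lines mark -0.5 and 0.5. *Fos*, *Jund* and *Dusp1* are called upwards and *Jun* downwards in both comparisons with mock, and *Egr1* alone carries a filled triangle, at -1.45.

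The make-up of the AP-1 subunit RNA was compared within each library on the TPM scale, on which reads are divided by transcript length. All transcripts of a gene were summed, coding or not. The 7 subunit genes summed to 208, 253 and 226 TPM in mock, 238, 248 and 199 TPM in EPR and 250.5, 299.6 and 236 TPM in EPRSTOPE libraries, so that the group sums overlapped. *Junb* gave the largest part in every library, 54.7% ± 2.6 (SD, n = 3) of the sum in mock, 55.2% ± 1.5 in EPR and 60.6% ± 0.5 in EPRSTOPE. *Fosl1* came next in mock cells with 17.2% ± 0.7 and was at 14.3% ± 0.8 in EPR and 10.7% ± 1.5 in EPRSTOPE cells, without overlap between any of the groups. The share of *Jun* was 8.65% ± 0.38 in mock, 5.33% ± 0.59 in EPR and 5.04% ± 0.17 in EPRSTOPE libraries, again without overlap with mock. *Jund* stood at 8.49% ± 1.34 in mock, 13.4% ± 0.6 in EPR and 12.0% ± 2.4 in EPRSTOPE, and 1 EPRSTOPE library at 9.26% lay inside the mock range. *Fosl2* held 10.1% in mock, 10.1% in EPR and 8.72% in EPRSTOPE libraries.

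*Fos* supplied 0.585% ± 0.007 of the sum in mock, 1.40% ± 0.37 in EPR and 2.43% ± 0.82 in EPRSTOPE libraries, and the 3 groups did not overlap on this scale, though the highest EPR (1.71%) and the lowest EPRSTOPE library (1.72%) nearly met. *Fosb* stayed under 0.52% in every library. The 3 JUN genes together made up 71.9% ± 1.4 in mock, 73.9% ± 0.8 in EPR and 77.7% ± 2.7 in EPRSTOPE. Each share whose groups did not overlap had p = 0.1 in the exact permutation test, the smallest that 3 against 3 libraries allow. Transcript length is estimated per library in these tables, and a shift between long and short transcripts of a gene moves its TPM as well. The coding transcript of *Fos* gave 0.545 of 1.34 TPM in mock, 1.43 of 3.15 in EPR and 2.65 of 6.21 in EPRSTOPE cells. The rest of *Fos* was assigned to short processed transcripts, so its shares are not those of coding mRNA. *Fosl2* also held transcripts with retained introns, with 15.9 of 23.0 TPM coding in mock cells.

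**Figure D4:**
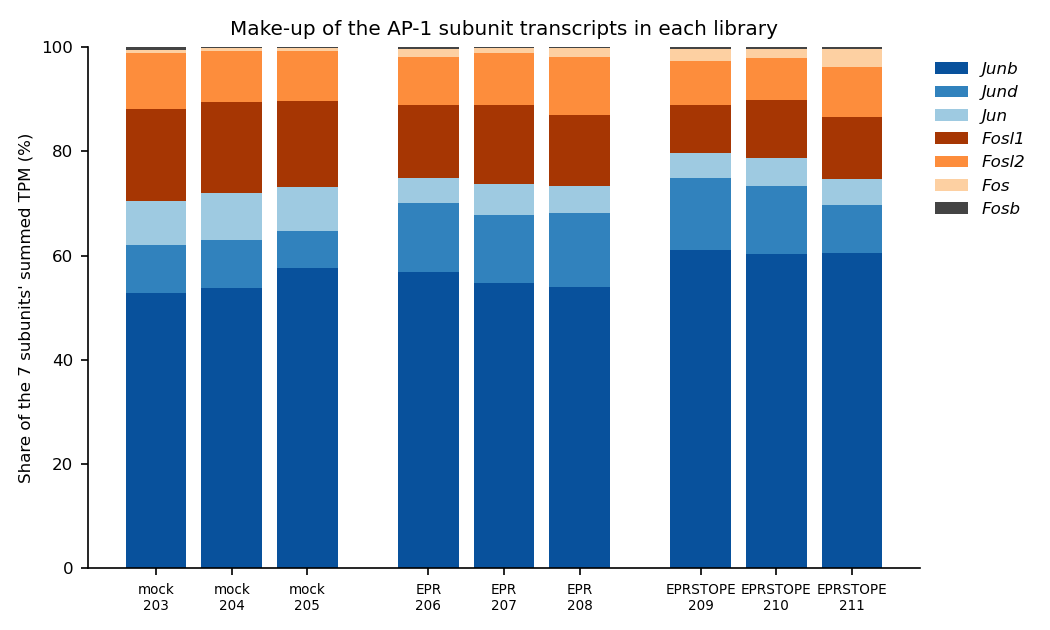
Share of each of the 7 AP-1 subunit genes in their summed TPM, as stacked bars for the 9 libraries (percent, JUN genes in blue, FOS genes in orange and grey). *Junb* fills 52.8 to 61.1% of every bar, *Fosl1* is thinner in EPRSTOPE (9.10 to 11.9%) than in mock bars (16.4 to 17.7%), and *Jun* is thinner in EPR and EPRSTOPE than in mock bars.

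Over all 10 genes the order in mock cells, on the TPM scale, ran from *Junb* (110 to 136 TPM) through *Fosl1* (36.9 to 44.0 TPM) to *Fosl2*, *Jun*, *Jund* and *Ier2* (15.7 to 24.9 TPM), each of which overlapped its neighbour in this order. Below them came *Dusp1* with 13.4 to 14.6 TPM. *Egr1*, *Fos* and *Fosb* were lowest at 0.332 to 1.87 TPM, and *Egr1* overlapped with *Fos*, which lay above *Fosb*. *Dusp1* moved from rank 7 in mock to rank 4 in EPR and rank 3 in EPRSTOPE, while *Jun* moved from rank 4 to rank 7 in both.

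The start regions of 3 genes that were called in both comparisons with mock are printed to show which known response elements lie near them, 250 bases before to 50 bases after the start in RefSeq on GRCm38.p6, on the gene's own strand. Capitals mark every match on either strand to the cyclic AMP response element (CRE, TGACGTCA), the core of that element (TGACG, also part of the full CRE), the AP-1 site (TGANTCA), the SP1 box (GGGCGG), the EGR1 site (GCGTGGGCG), the CArG box bound by serum response factor and the TATA box (TATAAA). The *Dusp1* region is chr17:26508423-26508722 on the minus strand, the *Fos* region chr12:85473640-85473939 on the plus strand and the *Jun* region chr4:95052173-95052472 on the minus strand.
Dusp1: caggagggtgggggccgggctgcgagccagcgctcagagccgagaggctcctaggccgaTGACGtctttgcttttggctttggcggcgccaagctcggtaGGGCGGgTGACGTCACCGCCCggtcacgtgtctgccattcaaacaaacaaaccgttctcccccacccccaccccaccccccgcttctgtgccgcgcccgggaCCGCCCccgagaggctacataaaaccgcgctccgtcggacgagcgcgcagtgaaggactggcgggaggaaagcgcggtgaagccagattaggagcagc
Fos: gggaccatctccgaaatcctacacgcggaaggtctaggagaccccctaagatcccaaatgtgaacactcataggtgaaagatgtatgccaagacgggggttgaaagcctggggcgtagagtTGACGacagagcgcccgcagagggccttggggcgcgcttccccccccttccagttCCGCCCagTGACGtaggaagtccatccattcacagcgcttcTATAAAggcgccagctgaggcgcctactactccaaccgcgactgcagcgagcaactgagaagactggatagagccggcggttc
Jun: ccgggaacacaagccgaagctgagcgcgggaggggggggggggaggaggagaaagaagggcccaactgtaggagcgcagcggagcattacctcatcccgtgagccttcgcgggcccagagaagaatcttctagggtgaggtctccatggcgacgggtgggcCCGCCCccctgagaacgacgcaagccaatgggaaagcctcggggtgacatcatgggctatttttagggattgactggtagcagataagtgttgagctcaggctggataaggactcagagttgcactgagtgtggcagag

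*Dusp1* was the only one of the 7 genes examined with a full CRE, at -143 from the RefSeq start, between SP1 boxes at -150 and -135. That element is in 1.79% of the 32851 start regions of the table. CRE cores, found in 20.8% of all regions, were in *Dusp1* (at -191 and, inside the full element, at -143 and -140), *Fos* (at -129 and -66), *Fosb* (at -60) and *Junb* (at -106). The TATA box, found in 13.6%, was in *Fos* at -33. In *Junb* its letters were at position 1, the RefSeq start, which lies upstream of the Gencode M21 start given above (84978718, minus strand). *Jun* held a single SP1 box, an element of 35.7% of all regions. The letters of the AP-1 site (7.81% of all regions), the EGR1 site (0.612%) and the CArG box (1.63%) were in none of the 7 windows. Sites outside these windows, or that differ from these letters, were not looked for, so their absence from the genes does not follow. For *Jund* the window (chr8:70697489-70697788) follows a RefSeq start upstream of the Gencode M21 start given above. For *Fosl2* (chr5:32136222-32136521) and *Dusp1* the window follows a RefSeq start downstream of the Gencode start. That of *Dusp1* is at 26562128 on the minus strand, far from its window. The regions at the Gencode starts of *Jund*, *Fosl2* and *Dusp1* were therefore not searched. *Fosl1*, *Egr1* and *Ier2* were not examined here. Genes with a CRE core or the full element include called (*Dusp1*, *Fos*) and uncalled (*Fosb*, *Junb*) members.

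AU-rich elements downstream of the coding sequence are what makes many immediate early mRNAs short-lived, and KHSRP is one of the proteins that bind them. The first heptamer TATTTAT (capitals) after the stop codon is printed for the same 3 genes with 10 bases on either side, from Gencode M21 transcripts on GRCm38. The windows are chr17:26506160-26506186 (minus strand), chr12:85477104-85477130 (plus strand) and chr4:95049080-95049106 (minus strand).
Dusp1: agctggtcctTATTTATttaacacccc
Fos: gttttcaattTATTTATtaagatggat
Jun: tgcttgtgcaTATTTATaatagcgttc

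With the longest stretch after the stop codon taken for each gene, *Dusp1* held 3 such heptamers, *Fos* 2, *Fosl2* 3, and *Jun*, *Jund*, *Fosb* and *Fosl1* 1 each, whereas *Junb*, *Egr1* and *Ier2* held no match. Of 11968 tested genes with such a stretch, 31.4% held at least 1. Thus 7 of the 10 genes carry the heptamer. They include genes that rose (*Dusp1*, *Fos*, *Jund*), the gene that fell (*Jun*) and *Fosl2*, which varied least.

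Of the other parts of the network, the partners of AP-1 in the ATF, BATF, JDP and MAF families had 9 of 12 genes above the filter, and 4 were called in EPR against mock, all higher, against 28.1% of all tested genes. In EPRSTOPE against mock 4 were higher and 1 lower. Among them *Maff*, a small MAF protein without an activation domain, went from 26.1 ± 1.2 CPM (SD, n = 3) in mock to 51.8 ± 6.2 CPM with EPR and 44.5 ± 5.6 CPM with EPRSTOPE, and *Mafk* from 41.6 ± 2.6 to 69.6 ± 9.7 and 82.7 ± 5.9 CPM. *Jdp2*, a repressor that dimerizes with JUN proteins, was the called lower gene in EPRSTOPE cells, at 10.7 ± 0.9 CPM against 18.0 ± 2.8 CPM in mock. The median log2 fold change of the 9 genes was 0.36 in EPR and 0.39 in EPRSTOPE cells.

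Among 30 other immediate early genes 26 passed the filter, and of these 10 rose and 2 fell in EPR cells, while 8 rose and 2 fell in EPRSTOPE cells, which is 12 and 10 of 26 against 28.1% and 28.0% of all tested genes. Their median log2 fold change was 0.17 and 0.26. *Btg2*, an antiproliferative gene, rose from 8.13 ± 0.48 CPM (SD, n = 3) in mock to 68.3 ± 2.6 CPM with EPR and 39.0 ± 5.4 CPM with EPRSTOPE. *Ier3* and *Ier5*, of the same broad class as *Ier2*, rose in both, *Ier3* from 118 ± 12 to 289 ± 41 and 365 ± 21 CPM and *Ier5* from 64.7 ± 2.6 to 160.5 ± 11.4 and 173 ± 3 CPM. *Cyr61*, a matricellular protein gene driven by serum, fell in EPR cells from 532 ± 12 to 238 ± 17 CPM, and *Gadd45b*, a stress gene, fell in both, from 55.5 ± 7.3 to 34.1 ± 1.3 and 33.4 ± 0.9 CPM. Between EPR and EPRSTOPE 2 were higher (*Btg2* and *Tnfaip3*) and 4 lower in EPR, 6 of 26 against 13.2% of all genes, and the call of *Tnfaip3* was lost without EPR library 206 (log2 fold change 0.49).

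Of 17 feedback inhibitors of MAP kinase signaling, the class to which *Dusp1* belongs, 16 passed the filter. In EPR cells 5 rose and 3 fell, and in EPRSTOPE cells 4 rose and 4 fell, 8 of 16 in each against 28.1% and 28.0% of all tested genes. Among those that fell in EPRSTOPE cells, *Dusp5* (log2 fold change -0.503) lies on chromosome 19 like *Fosl1*. The median of that chromosome in EPRSTOPE cells was -0.56, and its part in the *Dusp5* call was not tested. *Dusp6*, the phosphatase specific for ERK, followed *Dusp1*, from 51.3 ± 1.0 CPM (SD, n = 3) in mock to 131 ± 6 CPM with EPR and 147 ± 16 CPM with EPRSTOPE. *Spred3*, an inhibitor of the ERK cascade, went from 3.04 ± 0.47 to 15.01 ± 0.92 and 10.5 ± 0.9 CPM, and *Errfi1*, an inhibitor of the EGF receptor, from 134 ± 3 to 218 ± 15 and 259 ± 25 CPM. *Dusp14* fell in EPR cells (16.4 ± 2.4 against 35.4 ± 0.6 CPM), and *Spry1* fell in EPRSTOPE cells (4.41 ± 1.10 against 10.2 ± 1.0 CPM).

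Among 32 tested genes of the MAP kinase cascade and of the SRF, ELK and CREB factors, 4 rose and 3 fell in EPR cells and 3 rose and 4 fell in EPRSTOPE cells. That is 7 of 32 genes in each, against 28.1% and 28.0% of all tested genes. *Srf*, which encodes the factor that drives *Fos* and *Egr1*, was lower in EPRSTOPE cells, where *Egr1* was higher, with 53.7 ± 4.2 CPM (SD, n = 3) against 91.4 ± 0.5 CPM in mock and 89.2 ± 10.6 CPM in EPR. *Mapk9* (JNK2) rose from 32.9 ± 1.1 to 54.1 ± 5.4 CPM in EPR and 90.2 ± 5.3 CPM in EPRSTOPE cells, and *Creb1* fell in EPRSTOPE cells, from 81.4 ± 1.8 to 51.5 ± 5.6 CPM. *Map2k6*, which activates p38, rose in EPR cells alone by this call, from 11.6 ± 0.7 to 42.5 ± 3.7 CPM, and the direct difference to EPRSTOPE (13.1 ± 3.5 CPM) was called as well (log2 fold change 1.72).

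Of the 2 EGR1 corepressors, *Nab2* was called in EPRSTOPE cells (19.5 ± 2.0 against 13.7 ± 1.3 CPM in mock), where 28.0% of all tested genes were called. The call of *Nab2* was lost when any of mock libraries 203, 204 and 205, EPR library 208 or EPRSTOPE libraries 210 and 211 was left out, at log2 fold changes of 0.44 to 0.58. Of 6 heat shock genes, which handling or stress induces, 4 fell in EPR cells, against 12.9% of all tested genes, among them *Hsp90aa1*, from 1791 ± 60 to 1150 ± 55 CPM, and 2 were called without EPR library 208. The call of *Hspa1a* among them, and the single call in EPRSTOPE cells, is uncertain because its near-identical copy *Hspa1b* can take its reads. *Hspa1a* averaged 7.03 CPM in mock and 0.753 CPM in EPR libraries and was listed at 0 in EPRSTOPE libraries, while *Hspa1b* was at 48.7 ± 5.2, 49.2 ± 1.8 and 61.9 ± 5.6 CPM in mock, EPR and EPRSTOPE. Of 8 factors that bind AU-rich elements, *Zfp36* rose and *Hnrnpd* fell in EPR cells, where 28.1% of all tested genes were called. None of the 8 was called in EPRSTOPE cells against mock or between EPR and EPRSTOPE. The call of *Zfp36* was lost without mock library 203 or 204 or EPR library 206 or 207 (log2 fold changes of 0.59 to 0.68). *Khsrp* stood at 128 ± 4 CPM in mock, 106 ± 5 CPM in EPR and 108.5 ± 5.7 CPM in EPRSTOPE (SD, n = 3), log2 fold changes of -0.27 and -0.24 that are under the fold threshold.

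Of 22 genes known as AP-1 targets 21 passed the filter. In EPR cells 11 rose and 3 fell, and in EPRSTOPE cells 11 rose and 1 fell, which makes 14 and 12 of 21 called against 28.1% and 28.0% of all tested genes. *Il6* and *Mmp3*, at 0.054 and 0.773 CPM in mock cells, passed the filter through the EPR and EPRSTOPE libraries. The list was chosen with earlier results of these data known, so these counts are a description. Between EPR and EPRSTOPE 10 were lower and 2 higher in EPR, 12 of 21 against 13.2% of all genes, and 7 were called there with counts rebuilt from TPM. The median log2 fold change of the 21 genes was 0.55 in EPR and 0.75 in EPRSTOPE cells, and -0.43 between EPR and EPRSTOPE.

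Between EPR and EPRSTOPE the matrix metalloproteinase genes had the widest steps of the 21 genes. *Mmp13* (collagenase 3) stood at 107 ± 7 CPM (SD, n = 3) in mock, 855 ± 34 CPM in EPR and 3804 ± 317 CPM in EPRSTOPE libraries. *Mmp10* stood at 8.69 ± 0.80, 44.3 ± 2.4 and 209 ± 13 CPM, and *Mmp3* at 0.773 ± 0.283, 16.9 ± 2.3 and 98.5 ± 13.2 CPM. All 3 were called in each of the 3 comparisons, with log2 fold changes of -2.15, -2.24 and -2.55 in EPR against EPRSTOPE. *Il6*, a cytokine gene, was under 3 counts on average in mock (0.054 CPM) and at 4.65 ± 1.12 CPM in EPR and 12.2 ± 0.1 CPM in EPRSTOPE cells. *Spp1* (osteopontin) and *Itgb6* were the called genes that were higher in EPR than in EPRSTOPE, *Spp1* at 2874 ± 147 against 1385 ± 154 CPM and 822 ± 49 CPM in mock, and *Itgb6* at 71.7 ± 3.3 against 39.4 ± 4.5 CPM. Among the targets that fell, *Hmox1*, the heme oxygenase gene, was at 92.5 ± 5.2 CPM in mock, 31.5 ± 4.1 CPM in EPR and 38.5 ± 3.4 CPM in EPRSTOPE. *Itga5* and *Hmga1* fell in EPR cells.

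**Figure D5:**
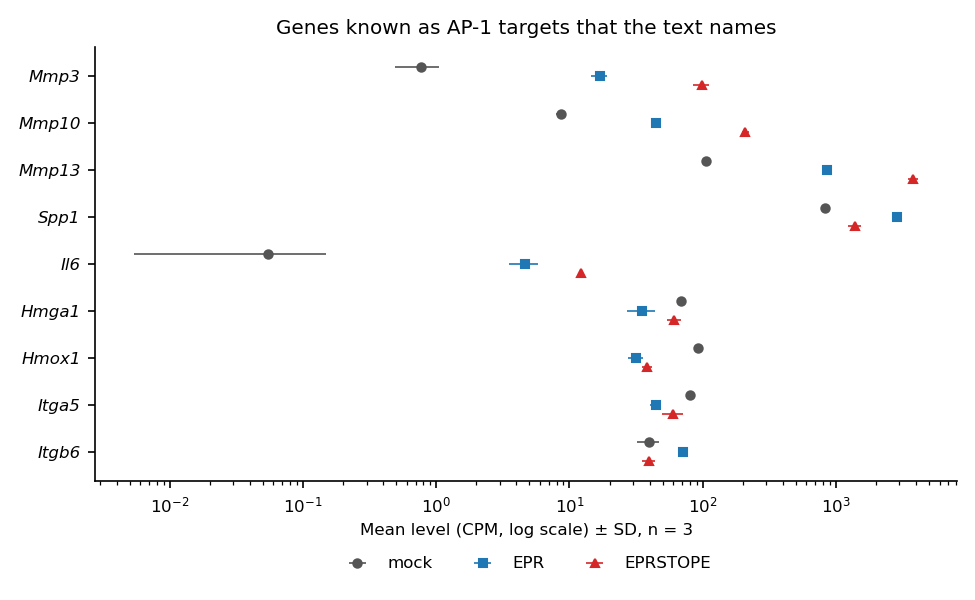
Mean level in CPM (log axis) of the 9 AP-1 target genes named in the text, of 21 that passed the filter, in mock (circles), EPR (squares) and EPRSTOPE cells (triangles), with bars of 1 SD (n = 3; a lower bar that would reach 0 ends above it). For *Mmp3*, *Mmp10* and *Mmp13* the 3 groups lie in steps from mock to EPR to EPRSTOPE, and *Spp1* and *Itgb6* are highest in EPR.

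As a description of the patterns, the genes whose log2 CPM followed each of the 3 most clearly changed members over the 9 libraries were sought among 9322 genes whose level averaged 10 CPM or more over all 9 libraries, a level that a gene low in mock cells can reach through the other groups. *Dusp1* was followed by *C920009B18Rik*, *Ctnnal1* and *Cyb561*, all with Pearson's r = 0.998 or 0.997. *Jun* was followed by *Mrpl42*, *Nup37* and *Kti12* (r = 0.989, 0.987 and 0.986), and *Egr1* by *Casp8*, *Tinagl1* and *Prl2c3* (r = 0.992, 0.977 and 0.976). The 9 points fall into 3 groups, so that these values mostly describe the order of the group means: *Casp8*, for example, stood at 47.4 CPM in mock, 45.9 CPM in EPR and 76.6 CPM in EPRSTOPE libraries. *Prl2c3* belongs to a multigene family whose copies may share reads.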

How the data were processed

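Paired-end, stranded total RNA libraries were sequenced on an Illumina instrument, a NextSeq per the labels and a HiSeq per the study's methods. Per the labels and the study's methods, the authors estimated transcript abundance with kallisto 0.43.1 on Gencode vM15 (GRCm38.p5). They deposited 2 values per transcript in each library: the estimated count as kallisto gave it, and TPM, which divides by effective length and sums to 1000000. Whether strand was used is not given in the sources used here.

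Estimated counts were summed per gene symbol and rounded. A filter of 1 CPM in 3 or more libraries left 15370 genes and 45412 transcripts, tested with edgeR 4.0.16 (R 4.3.3): TMM, 1 factor of 3 levels over all 9 libraries, glmQLFit and glmQLFTest, Benjamini-Hochberg adjustment. The thresholds for a call, 0.01 for the adjusted p and 0.5 for the log2 fold change, were those of the study's methods. The SE comes from the F statistic. The fit was tested on simulated counts. Totals ran from 5972457 to 11876435 counts per library, which limits values under about 0.502 CPM. That is the level of 3 counts in the smallest library before TMM scaling, and it covers counting error only. Groups were taken from the genotype labels, and libraries are called by the numbers 203 to 211 of their titles.

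Shares of subunits were computed from TPM and compared by two-sided exact permutation tests. Positions and stretches after the stop codon came from Gencode M21, start regions from RefSeq on GRCm38.p6; 7 of the 10 genes had a start region that was used. Promoter and AU-rich matches are by letters alone.

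Alternatives were DESeq2 1.42.0, limma 3.58.1 with voom, DESeq2's size factors in edgeR, no filter, at least 10 counts in every library, counts rebuilt from TPM, only the compared groups, protein-coding transcripts, a looser threshold and leaving out each library. The shift by a chromosome's median was chosen after seeing the data. All 10 genes are named. From 8 gene lists, up to 3 called genes per direction and comparison with the largest fold change and at least 10 CPM could be named, and *Khsrp*, *Hspa1a* and *Hspa1b* were named after their values were seen. A few list genes are not reported here by name. The members and the lists were chosen with earlier results of these data known, so the counts of list genes called are descriptions. A list gene low in a group could pass the filter through the others, which partly sets the direction of its change. The remaining steps used Python 3.11.15, pandas 2.3.3, numpy 2.4.6 and matplotlib 3.10.9.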

Additional observations from a re-analysis of the deposited data

Results flagged for a closer look

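The effect of EPR and the effect of EPRSTOPE, each against mock, differed for 23 of the members and list genes named here by the direct edgeR test of EPR against EPRSTOPE. *Egr1* is the member among them, with a log2 difference of -1.45. It was lower in EPR by this test in each of the 9 fits that left out a library.

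Of the AP-1 targets named above, *Mmp3* (-2.55), *Mmp10* (-2.24), *Mmp13* (-2.15), *Il6* (-1.40) and *Hmga1* (-0.80) were lower in EPR than in EPRSTOPE on the log2 scale, and *Spp1* (1.05) and *Itgb6* (0.87) were higher. Further targets were called lower in EPR too, among them *Plau* (-1.80) and *Ptgs2* (-0.93). Of the other immediate early genes, *Sgk1* (-0.81), *Cyr61* (-0.74) and *Klf10* (-0.54) were lower in EPR and *Btg2* (0.81) and *Tnfaip3* (0.55) higher. *Spry2* (-0.83), *Dusp14* (-0.77), *Dusp7* (-0.61) and *Mapk9* (-0.74) were lower in EPR, and *Map2k6* (1.72), *Spry1* (0.94), *Dusp16* (1.004), *Dusp8* (0.89), *Srf* (0.73) and *Mapk11* (0.69) were higher. The call of *Dusp7* was lost without EPR library 208 (-0.47), that of *Tnfaip3* without EPR library 206 (0.49), and that of *Dusp8* without EPR library 206 or 207 or EPRSTOPE library 209 or 210 (0.79 to 0.90). That of *Spry1* was lost without any of EPR libraries 206, 207 and 208 or EPRSTOPE libraries 209 and 210 (0.78 to 0.97). BC030870 RNA was at 23.7 to 27.0 CPM in EPR and 3.80 to 4.74 CPM in EPRSTOPE cells, so that the mutation and the level of the RNA cannot be told apart in any of these.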

How the results depend on the processing

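No paired analysis was possible because the groups share no library number. For the 10 genes, 491 of the fold changes recomputed under alternatives kept their direction and their side of the threshold. Of the rest, 18 changed sign, 15 lost their call and 7 gained one. With counts rebuilt from TPM the number of called genes of the 10 was 2 in EPR and 3 in EPRSTOPE against mock, in place of 4 and 5, and 0 in place of 1 between EPR and EPRSTOPE. In that last comparison 3 of the 10 had an unadjusted p under 0.05 in edgeR with that setting, DESeq2 and limma-voom each called 1 from the counts, and *Fosb* was not tested. Over all genes that setting called 2258, 2337 and 482 in place of 4316, 4302 and 2031. With an adjusted p under 0.05 and no fold threshold, 8 and 3 of the 10 were called in EPRSTOPE against mock and EPR against EPRSTOPE, and 7478, 7442 and 4637 of all genes. In the lists, counts rebuilt from TPM called 2 partners of AP-1 in place of 5 in EPRSTOPE against mock, and 1 other immediate early gene in place of 6 between EPR and EPRSTOPE. Leaving out each library gave 3 to 4, 5 to 6 and 1 called of the 10.

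Small uncalled values changed sign. With counts rebuilt from TPM, *Fosl2* went to 0.22, 0.16 and 0.062, *Egr1* in EPR against mock to 0.19 and *Jund* in EPR against EPRSTOPE to -0.017. *Fosl2* in EPR against EPRSTOPE was 0.00833 with at least 10 counts in every library, and *Junb* in EPR against mock -0.0063 with protein-coding transcripts. With single libraries left out, *Fosl2* (EPR against EPRSTOPE) ranged from -0.066 to 0.038, *Junb* (EPR against mock) from -0.028 to 0.11, *Jund* (EPR against EPRSTOPE) from -0.14 to 0.11, *Egr1* (EPR against mock) from -0.18 to 0.11 and *Ier2* (EPR against mock) from -0.037 to 0.25. Likewise the difference in TPM share between EPR and mock ranged from -0.14 to 0.053 points for *Fosb*, -0.52 to 0.48 for *Fosl2* and -0.47 to 1.95 for *Junb*, and that of *Jun* between EPR and EPRSTOPE from -0.031 to 0.55. Relative to its chromosome *Fosl1* changed sign, to 0.087 in EPRSTOPE against mock and -0.30 in EPR against EPRSTOPE. The cause of the other changes was not tested. Depth limits *Fos*, *Fosb* and *Egr1* most.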
